A study of Mus musculus with 19 samples.

Results

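The 10 genes described here, of 13202 in the bulk table, all encode adhesion molecules of the neural and neural crest lineages: Ncam1, Cadm1, Cadm4, L1cam, Nrcam, Mcam, Alcam, Cdh2, Nectin1 and Nectin3. They were chosen by name with earlier results of these data known, as were the gene lists and cell markers used below. All 10 were listed in the table and passed its filter on low values, which left 10803 genes to test. RNA came from Melan-a cells, an immortalised line of pigmented mouse melanocytes. The parental line carries wild-type Bap1 (WT), and 4 clones carry a CRISPR knockout of Bap1, which encodes the nuclear deubiquitinase BAP1, a tumour suppressor lost in many uveal melanomas. Each of these 5 lines gave 2 cultures, so there were 10 bulk libraries, with no drug treatment. Each knockout line is 1 clone, the parental line was not cloned through editing as far as the labels say, and the sources used here do not name the edited exon.

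The same genes were read in single cells of tumours grown from wild-type or knockout Melan-a cells, placed under the skin or in the eye of syngeneic mice. There were 4 matrices with no replicate, labelled WT or KO for genotype and skin or ocular for site. The sample title calls the dissociated tumour tissues multiplexed. Genotype and site come only from the names of the matrices, and the sources used here do not name the clone that seeded the knockout tumours. The ages and the number of the mice are not stated.

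Adhesion molecules hold cells to their neighbours and pass signals inward. Those of the immunoglobulin superfamily carry a row of immunoglobulin domains outside the membrane and bind the same molecule or a relative on the next cell, without calcium. Cadherins do so with calcium and are tied to actin through catenins. Melanocytes arise from the neural crest and keep several of these molecules, and a switch among them accompanies the move of melanoma cells from epidermis to dermis.

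Upstream sequence was taken from RefSeq for the genes whose RNA turned out to move most (the reads follow further on), to show what lies before their start sites. The table held a window for 6 of the 10 genes, among them Mcam, Alcam, Nectin3 and L1cam; Ncam1, Cadm1, Cdh2 and Nectin1 had none. The 250 bases before each start are given 5′ to 3′ on the gene's strand, build GRCm38.p6, and capitals mark GGGCGG or its reverse complement CCGCCC, a GC box, and TGACGTCA, a cAMP response element. The Mcam window lies at chr9:44134408-44134657 on the plus strand. The other 3 lie on the minus strand, Alcam at chr16:52453082-52453331, Nectin3 at chr16:46496968-46497217, and the first listed start of L1cam at chrX:73880791-73881040.
Mcam: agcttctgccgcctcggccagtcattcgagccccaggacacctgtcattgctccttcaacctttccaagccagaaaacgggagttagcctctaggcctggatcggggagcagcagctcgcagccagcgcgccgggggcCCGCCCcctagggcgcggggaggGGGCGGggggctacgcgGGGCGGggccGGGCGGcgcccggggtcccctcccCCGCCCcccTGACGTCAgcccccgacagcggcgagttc
Alcam: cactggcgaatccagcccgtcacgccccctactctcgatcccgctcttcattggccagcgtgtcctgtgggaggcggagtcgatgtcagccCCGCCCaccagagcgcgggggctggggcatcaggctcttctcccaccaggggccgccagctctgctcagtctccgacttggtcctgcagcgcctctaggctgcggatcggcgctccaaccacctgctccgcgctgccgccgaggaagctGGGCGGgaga
Nectin3: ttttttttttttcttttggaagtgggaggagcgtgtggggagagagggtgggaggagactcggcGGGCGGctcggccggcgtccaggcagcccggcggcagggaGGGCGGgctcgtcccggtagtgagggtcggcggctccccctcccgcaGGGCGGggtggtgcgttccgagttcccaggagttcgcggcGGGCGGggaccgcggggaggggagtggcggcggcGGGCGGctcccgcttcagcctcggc
L1cam: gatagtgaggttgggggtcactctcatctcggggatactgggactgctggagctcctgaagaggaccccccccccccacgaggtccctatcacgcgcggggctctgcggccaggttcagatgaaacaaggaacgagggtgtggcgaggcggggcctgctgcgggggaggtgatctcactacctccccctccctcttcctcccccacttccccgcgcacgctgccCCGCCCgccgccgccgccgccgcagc

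All 7 windows of the 6 genes, 2 of them from L1cam, held GGGCGG or its complement, which 32.7% of 32851 windows of the same length held. Mcam and Nectin3 had 5 matches each, Cadm4 4, Alcam 2, and Nrcam and each L1cam start 1. Mcam was the only one of the 6 genes with TGACGTCA, present in 1.55% of windows. Neither of the E-boxes CACGTG (6.02% of windows) and CATGTG (12.3%), the letters through which MITF binds, was in any of the 7. The same held for TGANTCA (6.75%), the AP-1 element, and ACAAAG (16.5%), a core bound by SOX factors. Both strands were searched. G and C made up 63.2% to 75.2% of each window, against a median of 52.4% over all windows. TGACGTCA and GGGCGG were added to the search after the windows were seen. These are matches of letters, and no binding was measured.

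Bap1, the edited gene, was read first. It had 4450 and 4392 normalised reads in the parental line, 753 and 655 for clone 1, 1067 and 1124 for clone 2, 1193 and 1098 for clone 3, and 491 and 359 for clone 4, so every knockout culture lay below both parental ones. The libraries held 30.8 to 46.8 M reads. All 13 melanocytic markers were in the table, with a sum of 2084260 to 2119840 reads in the parental cultures and 1654230 to 2270920 in the clones. The Schwann cell list, whose 7 genes were all listed, summed to 22837 and 22980 reads in the parental cultures and 4804 to 19969 in the clones. Its part in the results below was not tested. The 2 parental cultures were closer to each other than those of any clone: their median chi-square per gene was 0.98, against 2.66 to 11.7 within the clones and 0.455 from sampling noise. They were counted as 2 samples. The labels call the cultures biological replicates without saying how they were kept apart, so the p-values measure the spread between these cultures, which may be technical.

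Each of the 10 genes differed from the parental line in at least 1 clone, and the clones were unlike each other. By limma with Benjamini-Hochberg adjustment over all genes tested, clone 1 had 2 of the 10 higher and 2 lower than the parental line, while 1.15% and 2.35% of all genes were called in those directions and 3.5% in either. Clone 2 had 3 higher and 3 lower (12% and 14.1% of all genes, 26.1% in either direction). Clone 3 had 2 higher and 7 lower (19.9% and 20%, 39.8% in either), and clone 4 had 3 higher and 6 lower (19.3% and 17.2%, 36.5% in either). The median difference of the 10 genes was −0.23, −0.14, −0.49 and −0.45 in clones 1 to 4, and that of all genes tested lay between −0.02 and 0.04. Values are differences on the deposited variance-stabilised scale, close to log2, and each has 2 cultures a side. The adjustment was made for each clone apart, so like differences can pass in some clones and miss in others. Ncam1, for example, missed in clone 1 at −0.61 and passed in clone 2 at −0.60. In bulk RNA, fewer cells that express a gene and less RNA per cell cannot be told apart.

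The clone 1 count rested on single libraries more than the others did. It was 0 without either parental culture, 1 without culture 2 of clone 1, 2 without either culture of clone 3, and 7 without either culture of clone 4. The counts for clones 2, 3 and 4 stayed within 1.5 times of their value when any 1 library was left out (5 or 6, 6 to 9, and 7 to 9).

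**Figure D1:**
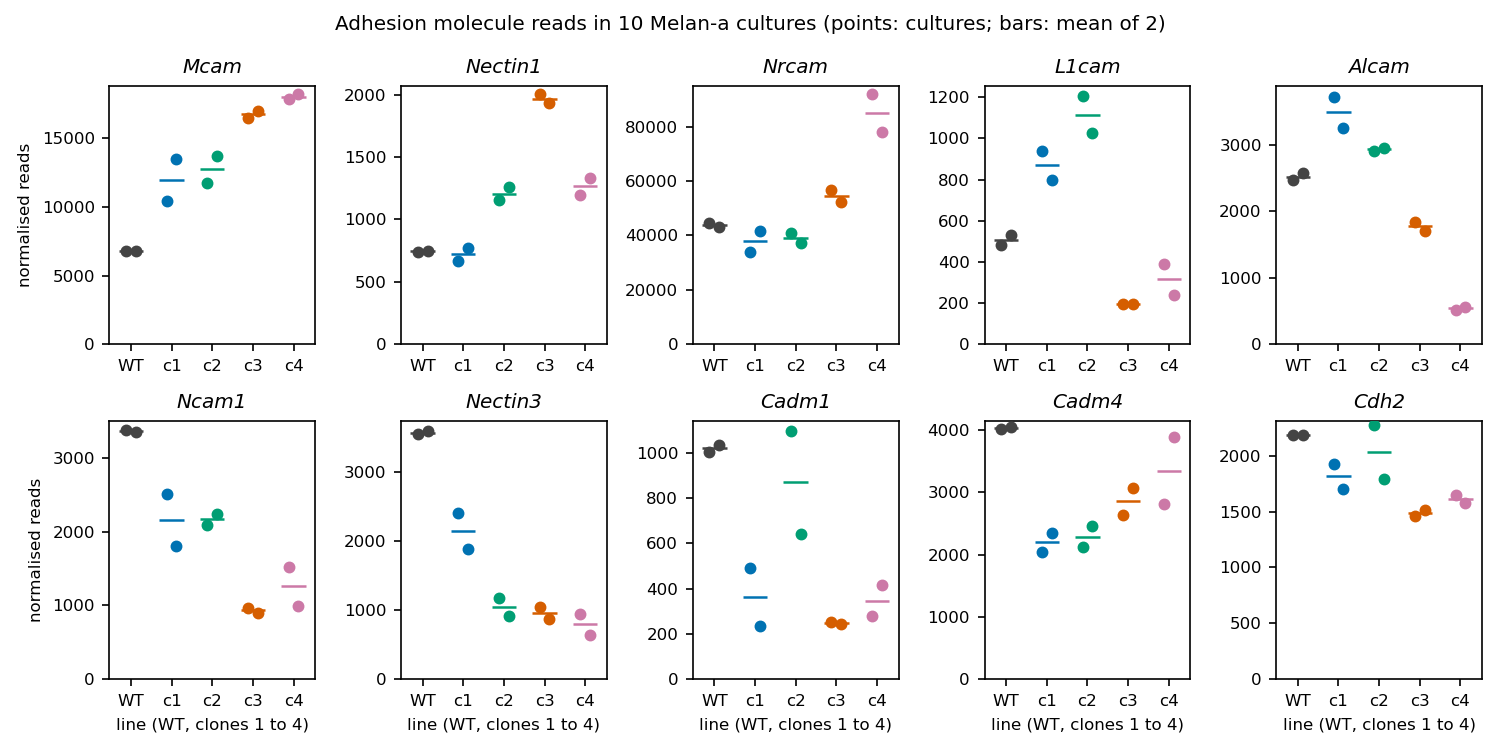
Normalised reads (vertical axis, linear from 0) of each of the 10 genes in the parental line (WT) and clones 1 to 4 (c1 to c4); each point is 1 culture and each bar the mean of the 2 cultures of a line. Mcam lies above both parental cultures in all 8 clone cultures, and Ncam1, Nectin3 and Cadm4 below both.

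Mcam (chromosome 9, 44134658 to 44142727), which encodes the melanoma cell adhesion molecule CD146, a receptor of the immunoglobulin superfamily also borne by endothelial cells, rose in every clone. It had 6818 and 6796 normalised reads in the parental line, 10434 and 13505 for clone 1, 11739 and 13721 for clone 2, 16507 and 17021 for clone 3, and 17824 and 18234 for clone 4. All 8 clone cultures lay above both parental cultures, as they did for 10.9% of genes tested. The line means were 1.76, 1.87, 2.46 and 2.65 times the parental mean in clones 1 to 4. The differences were 0.79, 0.88, 1.28 and 1.38 (SE 0.13; limma adjusted p 0.0106, 0.00107, 6.59e-05 and 3.71e-05). Mcam was the only one of the 10 called with one sign in all 4 clones, and 0.528% of genes tested were called higher in all 4 (2.1% with either sign). Its call in clone 1 was lost without parental culture 1 (adjusted p 0.126), parental culture 2 (0.132) or culture 2 of clone 1 (0.0575), and the number of the 10 genes called with one sign in all 4 clones was then 0. Clones 1 and 2 differed by 0.09 and clones 3 and 4 by 0.10, within their spread, while clone 4 exceeded clone 1 by 0.59 (limma adjusted p 0.00812).

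Ncam1 (chromosome 9, 49502129 to 49799393) encodes NCAM, or CD56, the founding neural cell adhesion molecule, which binds itself across cells and is modified with polysialic acid. Its reads were 3379 and 3356 in the parental cultures, 2517 and 1811 for clone 1, 2090 and 2242 for clone 2, 968 and 893 for clone 3, and 1525 and 987 for clone 4. Both parental cultures were the highest of the 10, and clone 3 was the lowest line. The differences were −0.61 (limma adjusted p 0.0994), −0.60 (0.0329), −1.67 (7.77e-05) and −1.33 (0.000351) with an SE of 0.18, so 3 of the 4 clones passed. In clone 3 the level was 3.62-fold below the parental mean. Clones 3 and 4 lay below clones 1 and 2 in each of the 4 pairs (limma adjusted p 0.00205 to 0.0168), and clones 1 and 2 did not differ beyond their spread (0.02). The clone 2 call was lost without any 1 of 6 libraries, those of the parental line, clone 2 and clone 3 (limma adjusted p 0.057 to 0.146). In clone 1 the difference passed without culture 1 of that clone (limma adjusted p 0.0407) or either culture of clone 4 (0.0365), and by DESeq2 (0.0423).

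L1cam and Nrcam encode members of the L1 family, which bind ankyrins inside the cell and guide axons in the nervous system. L1cam (chromosome X, 73853778 to 73880838) had 480 and 531 reads in the parental line, 940 and 798 for clone 1, 1204 and 1024 for clone 2, 196 and 196 for clone 3, and 391 and 241 for clone 4. The parental cultures thus sat between clones 1 and 2 above and clones 3 and 4 below, with no overlap. It rose in clone 2 (0.92, limma adjusted p 0.00177) and fell in clones 3 (−0.91, 0.0011) and 4 (−0.50, 0.0259). In clone 1 the difference was 0.62 and missed the threshold (limma adjusted p 0.0546; SE 0.15 throughout). The fall in clone 4 was lost without either parental culture (limma adjusted p 0.0819 and 0.152), without culture 2 of clone 4 (0.145) and after quantile normalisation (0.0788). Clone 1 passed without either culture of clone 4 (limma adjusted p 0.0154), after quantile normalisation (0.0347), with no filter (0.0495) and by DESeq2 (0.00791). Clone 3 was lower than clone 2 by 1.83 (limma adjusted p 6.89e-05).

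Nrcam (chromosome 12, 44328786 to 44605194) was high in clone 4. Reads were 44621 and 43123 in the parental cultures, 34049 and 41768 for clone 1, 40935 and 37154 for clone 2, 56654 and 52151 for clone 3, and 92070 and 77924 for clone 4. The cultures of clones 3 and 4 all lay above the parental ones and those of clones 1 and 2 all below. Only clone 4 passed, with a difference of 0.95 (SE 0.14, limma adjusted p 0.000686), 1.94 times the parental mean. The differences in clones 1, 2 and 3 were −0.22, −0.17 and 0.31. The median difference of chromosome 12, less that of all genes tested, was 0.23 in clone 4 and −0.17 in clone 2. Nrcam less that value was 0.71 and 0.01. Whether the copy number of the chromosome differed was not tested.

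Alcam (chromosome 16, 52248996 to 52453081) encodes CD166, which binds itself and the T cell receptor CD6 and has served as a marker of melanoma progression. Its reads were 2466 and 2577 in the parental cultures, 3723 and 3248 for clone 1, 2908 and 2951 for clone 2, 1845 and 1700 for clone 3, and 511 and 567 for clone 4. Clone 4 held 4.68-fold fewer than the parental mean, and no 2 lines overlapped. It rose in clone 1 (0.44, limma adjusted p 0.0483), and fell in clones 3 (−0.47, 0.00535) and 4 (−1.91, 1.01e-06), with 0.20 in clone 2 (0.18; SE 0.10). Clone 4 lay 1.44 below clone 3 (limma adjusted p 2.06e-05). The rise in clone 1 was lost by edgeR (0.0546), under a stricter filter (0.0584), and without any 1 of 8 libraries, all but those of clone 4 (limma adjusted p 0.0599 to 0.427). The fall in clone 3 was lost without parental culture 2 (0.061) or culture 2 of clone 3 (0.0577). L1cam and Alcam were the 2 genes of the 10 called higher in one clone and lower in another, as were 1.83% of genes tested.

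The nectins pair with each other across cells, and Nectin1 with Nectin3 more strongly than either with itself. They recruit afadin and help to set up cadherin junctions. In clones 2, 3 and 4 Nectin1 rose and Nectin3 fell. Nectin3 (chromosome 16, 46387665 to 46498535) had 3537 and 3586 reads in the parental line, 2400 and 1874 for clone 1, 1175 and 911 for clone 2, 1044 and 866 for clone 3, and 947 and 643 for clone 4. All 8 clone cultures lay below both parental ones, as they did for 12.1% of genes tested. The differences were −0.70 in clone 1 (limma adjusted p 0.0568), −1.62, −1.72 and −1.96, the last 3 past the threshold, with an SE of 0.17. In clone 4 the level was 4.48-fold below the parental mean. Clones 2, 3 and 4 did not differ from each other beyond their spread, and each lay below clone 1 (limma adjusted p 0.000583 to 0.00732). Clone 1 passed without its culture 1 (limma adjusted p 0.0417) or either culture of clone 4 (0.0304 and 0.0303), by DESeq2 (0.0126) and with no filter (0.0489).

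Nectin1 (chromosome 9, 43737075 to 43807461) had 739 and 748 reads in the parental line, 669 and 773 for clone 1, 1155 and 1257 for clone 2, 2002 and 1933 for clone 3, and 1196 and 1333 for clone 4. Clone 1 overlapped the parental line and the other 3 clones lay above it. The rise was 0.59 in clone 2, 1.22 in clone 3 and 0.64 in clone 4 (SE 0.10; limma adjusted p 0.0027, 2.08e-05 and 0.00102). Clone 3 was 2.65 times the parental mean and exceeded clones 2 and 4 (limma adjusted p 0.00339 and 0.00421), which lay 0.06 apart.

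Cadm1 and Cadm4 encode nectin-like molecules, which help to build synapses and to wrap axons with glia. CADM1 is also a ligand of the T and NK cell receptor CRTAM. Cadm1 (chromosome 9, 47530170 to 47862280) had 1003 and 1035 reads in the parental line, 492 and 233 for clone 1, 1098 and 643 for clone 2, 252 and 244 for clone 3, and 278 and 414 for clone 4. Clones 1, 3 and 4 lay wholly below the parental line, and the cultures of clone 2 fell on both sides of it. The falls were −1.21, −1.52 and −1.22 in clones 1, 3 and 4 (SE 0.25; limma adjusted p 0.0279, 0.000965 and 0.00364). In clone 2 the difference was −0.23 (limma adjusted p 0.541) and became 0.09 without its culture 2. The clone 1 call was lost without any 1 of 5 libraries, the parental ones, culture 2 of clone 1 and those of clone 3 (limma adjusted p 0.0642 to 0.191), and by edgeR (0.0565).

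Cadm4 (chromosome 7, 24482023 to 24504533) fell in clones 1, 2 and 3. Reads were 4015 and 4051 in the parental cultures, 2048 and 2350 for clone 1, 2115 and 2454 for clone 2, 2635 and 3074 for clone 3, and 2813 and 3889 for clone 4. Every clone culture lay below both parental cultures, most narrowly in clone 4. The differences were −0.82, −0.77, −0.48 and −0.27 (SE 0.15; limma adjusted p 0.015, 0.00433, 0.0286 and 0.182). The median of chromosome 7, less that of all genes tested, was −0.22 in clone 4, and Cadm4 less that value was −0.05. The clone 1 call was lost without either parental culture (0.14 and 0.148) or its culture 1 (limma adjusted p 0.0534). That in clone 3 was lost without any 1 of 4 libraries, the parental ones and its own (limma adjusted p 0.0581 to 0.187), and clone 4 passed without its culture 2 (0.0254).

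Cdh2 (chromosome 18, 16588877 to 16809246) encodes N-cadherin, the classical cadherin of neural tissue that melanoma cells take up as E-cadherin falls. It changed least: 2182 and 2181 reads in the parental cultures, 1928 and 1702 for clone 1, 2272 and 1788 for clone 2, 1461 and 1515 for clone 3, and 1646 and 1577 for clone 4. It fell by 0.50 in clone 3 and by 0.40 in clone 4 (SE 0.12; limma adjusted p 0.00754 and 0.0245), and the differences in clones 1 and 2 were −0.25 and −0.10. The fall in clone 3 was lost without either parental culture (limma adjusted p 0.0559 and 0.0561) or culture 1 of clone 3 (0.0576). That in clone 4 was lost without either parental culture (0.123 and 0.124) or culture 2 of clone 4 (limma adjusted p 0.075). The median of chromosome 18, less that of all genes tested, was −0.14, −0.14, −0.11 and 0.17 in clones 1 to 4. Cdh2 less that value was −0.39 in clone 3 and −0.57 in clone 4.

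**Figure D2:**
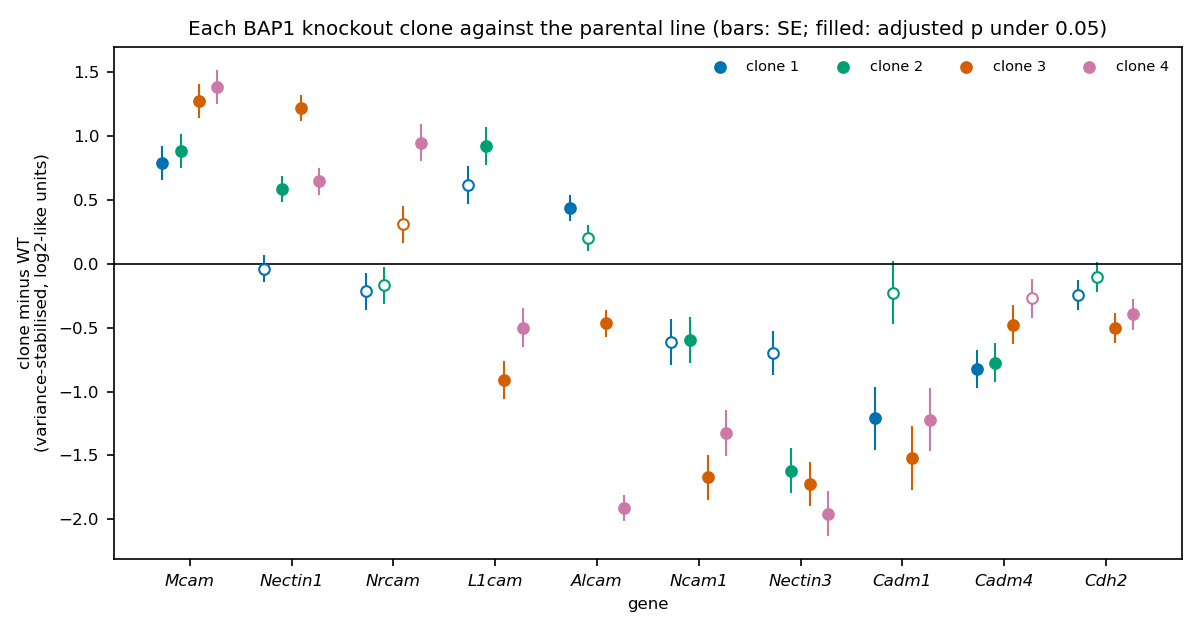
Difference of each clone from the parental line for the 10 genes (vertical axis, variance-stabilised units close to log2), with the SE of the fit; filled points passed an adjusted p of 0.05 by limma and open points did not. Mcam is above 0 in all 4 clones, whereas L1cam and Alcam have filled points on both sides of 0.

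Of the 10 genes, 9 differed among the 4 clones by the limma F test, which called 44.5% of all genes; Cdh2 did not pass (limma adjusted p 0.0672). With the clone as the unit, the 4 clone means were compared with the single parental mean, whose spread was taken to be that among clones. None of the 10 passed by limma, and none of the 10803 genes did, Bap1 included (limma adjusted p 0.735). At an unadjusted p under 0.05 there were 3 of the 10, against 671 of all genes (6.21%). These 3 were Mcam (1.08, SE 0.27), Nectin3 (−1.5, SE 0.45) and Ncam1 (−1.05, SE 0.44). edgeR on reads summed per line also called 0, with 3 of the 10 and 510 of all genes at an unadjusted p under 0.05. No edited clone that kept Bap1 was among the libraries, so editing and cloning cannot be told apart from loss of BAP1.

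For the 8 genes other than Cadm4 and Cdh2, whose line means span less than 1 unit, the nearest profiles over the 10 libraries were sought by root mean square difference after centring. Nearest to Mcam were Tbc1d2 (0.14), Rbm3 and Ipo13 (both 0.15), which differed from the parental line by 1.60, 1.33 and 1.2 in clone 4. Nearest to Nectin3 were Nedd9 (0.12), Atp13a5 and Efhd1 (both 0.18), and nearest to Nectin1 Pitpnm2 (0.10), B3galnt2 and Ehbp1l1 (both 0.12). Ncam1 lay nearest to Prkaa2 (0.16), Irf4 (0.18) and Fzd4 (0.19), and Nrcam to Inpp5b, Angptl6 (both 0.14) and Nars (0.15). Alcam lay nearest to Myadm (0.28), Anxa1 (0.30) and Gm9732 (0.32), and L1cam to Cfap54 (0.21), Ppfibp2 and Ankfn1 (both 0.26). Cadm1 lay nearest to Gjb2 (0.17), with Tmem65 (0.33) and Sun2 (0.34) farther off. Smaller values mean closer profiles.

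Catenins and membrane anchors had calls in the lower direction only. Of all genes tested, 2.35%, 14.1%, 20% and 17.2% were called lower in clones 1 to 4 and 1.15%, 12%, 19.9% and 19.3% higher, and the counts of each partner list are read against these shares. Of the 9 tested catenins and cadherin partners, 0 were called in clone 1, and 3, 5 and 6 fell in clones 2, 3 and 4 with none higher, with list medians of −0.20, −0.27, −0.55 and −0.63. Ctnnb1, encoding β-catenin, went from 75130 and 74580 reads in the parental cultures to between 44542 and 66276 in the clones. It fell in clones 2, 3 and 4 (−0.54, −0.72 and −0.64), as did Jup, encoding plakoglobin (−0.70, −0.88 and −1.38), and Plekha7 (−0.58, −0.62 and −0.81). Pkp2 fell in clone 4 (−0.75). Of 14 tested membrane anchors, 0, 2, 6 and 8 fell in clones 1 to 4 and none rose, with list medians of −0.01, 0.05, −0.28 and −0.41. The clone 2 count of the anchors is about the share of all genes. Among them Epb41l2, a band 4.1 protein, had differences of −0.56 in clone 3 and −1.26 in clone 4, and Epb41l3 −1.47 in clone 4. Ank2, an ankyrin, had −0.36 and −0.46 in clones 3 and 4, and Dlg3 −0.68, −0.61 and −0.72 in clones 2, 3 and 4; all of these passed.

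Of the other cadherins, 2 were tested. Cdh19, a cadherin of Schwann cell precursors, had 2283 and 2295 reads in the parental cultures and 3144 and 2247 in clone 1. It fell to 792 and 607 for clone 2, 199 and 161 for clone 3, and 449 and 526 for clone 4 (−1.5, −2.84 and −1.89; limma adjusted p 0.000117 or lower). Cdh1, encoding E-cadherin, had 96.2 and 123 reads in the parental cultures and 13.6 and 11.6 in clone 3, and it fell in clones 3 and 4 (−0.95 and −0.83). Of 8 other adhesion molecules of the immunoglobulin family, 1, 2, 2 and 3 fell and 0, 0, 2 and 2 rose in clones 1 to 4. Bcam, a laminin receptor, was the only partner gene called in all 4 clones, from 1263 and 1260 reads in the parental cultures to between 260 and 518 in the clones. Its differences were −1.16, −1.57, −1.32 and −1.43 (highest limma adjusted p 0.00548), and 1.57% of genes tested were called lower in all 4. Jam3 fell in clones 2, 3 and 4, and Kirrel and Mpzl1 rose in clones 3 and 4. Nectin2 rose in clone 3 (1.04) and Pvr fell in clone 4 (−0.50), the only calls among the 3 genes tested of the other nectins, nectin-like molecules and afadin.

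The remaining lists had calls in both directions, and several of their counts lie near the shares of all genes. Of 9 heterophilic receptors of the 10 molecules, 0, 1, 3 and 2 fell and 0, 0, 1 and 1 rose in clones 1 to 4, too few to set apart from those shares. Nrp2, encoding the semaphorin and VEGF receptor neuropilin 2, fell in clone 3 (−2.21), from 2938 and 2978 reads to 522 and 481, and rose in clone 4 (1.02), to 4231 and 8967. Agrn, encoding agrin, and Lama4, encoding a laminin chain, both fell in clones 3 (−1.88 and −1.33) and 4 (−0.97 and −0.76), and Lama4 also in clone 2 (−0.50). Of 11 sheddases, 0, 1, 1 and 4 rose and 1, 2, 2 and 1 fell in clones 1 to 4. Adam17 had differences of −0.64 and −0.50 in clones 2 and 3, and Mmp14 −0.53 and −0.38 in clones 1 and 2; these passed. Of 6 genes of NCAM polysialylation and signalling, 2 rose and 1 fell in each of clones 2, 3 and 4, and Prnp, encoding the prion protein, was the one that fell (−0.54, −0.78 and −0.45).

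In the tumour matrices, cells were kept with at least 500 UMIs, 200 genes and at most 20% mitochondrial UMIs, which left 11682 of 11810 barcodes (WT skin), 13111 of 13167 (KO skin), 26168 of 38176 (WT ocular) and 9398 of 11283 (KO ocular). The matrix labelled WT ocular had a longer gene list (32285, the others 19059) and shorter barcodes (16 bases, the others 24). Its values therefore stand beside the others with no ratio. No full barcode was shared between any 2 matrices. The first 16 bases were shared by 1793 to 2417 barcodes among the 3 matrices with one gene list, and by 0 to 4 with WT ocular. Clusters were made without the 10 genes and named from a list of 13 melanocytic markers and from lists for other cell types. Melanocytic-like cells numbered 5345 (45.8% of cells) in WT skin, 9770 (74.5%) in KO skin and 5038 (53.6%) in KO ocular, with 29.2%, 10.6% and 16.5% of cells in unnamed clusters. In WT ocular no cluster could be named melanocytic-like, because macrophage-like cells there held 58.6% of the highest summed level of melanocytic markers. Among its clusters with no immune or blood marker in their leading genes, numbers 0 and 1 were richest in melanocytic markers. They held 4245 and 3263 cells and are given by number. Clusters 14 and 11, with neutrophil and erythroid genes leading, stood at 99.0% and 91.7% of the highest level, above cluster 1 (89.0%). That no cluster could be named melanocytic-like held at both clustering resolutions. With at least 1000 UMIs per cell the same rule named 5208 cells of WT ocular melanocytic-like, and without the 5% highest doublet scores 299.

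The Bap1 level did not separate the matrices by their labels. It was 41.8 CPM (UMI counts scaled to equal totals of all UMIs in the cells summed) in melanocytic-like cells of WT skin, 47.5 in KO skin and 33.3 in KO ocular, so the matrix labelled KO skin was not the lower of the skin pair (ratio 1.14, 1.08 to 1.2). In the bulk clones Bap1 RNA stood at 9.62% to 25.9% of the parental level, so its level in the matrix labelled KO skin goes against that label. The sources used here do not say which part of Bap1 was edited or counted in the tumours. Directions below therefore hold between matrices as labelled.

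Between the skin matrices 9 of the 10 genes lay within 2-fold in melanocytic-like cells, and Alcam did not. In melanocytic-like cells Alcam was 99.3 CPM (exact Poisson 95% interval 96.7 to 102) in WT skin, 8.27 (7.63 to 8.95) in KO skin and 22.4 (21.3 to 23.4) in KO ocular. KO skin held 0.0833 of the WT skin level (0.0765 to 0.0906), and Alcam was the only 1 of the 10 past 2-fold lower there, with 0 past 2-fold higher. Of 8262 genes measured, 7.42% were past 2-fold lower and 12.8% higher (20.2% in either direction). The 6 melanocytic-like clusters of WT skin ranged from 78.3 to 174 and the 9 of KO skin from 4.06 to 12.1, with no overlap. Thinned to 1000 UMIs per cell, 9.47% of melanocytic-like cells in WT skin had an Alcam UMI (45.9% unthinned), 0.859% in KO skin (4.80%) and 1.78% in KO ocular (14.3%). Macrophage markers, from cells in which Alcam was high, summed to 187, 120 and 91.9 CPM in melanocytic-like cells of WT skin, KO skin and KO ocular, against 19122, 18074 and 9235 in macrophage-like cells. Intervals cover counting error only, and there is 1 matrix a label, so no test was made. Clusters are parts of a matrix and not replicates of its label. How many of all genes have clusters without overlap between matrices was not counted.

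Nrcam was 597 CPM in WT skin, 338 in KO skin and 466 in KO ocular, so KO skin held 0.566 of the WT skin level (0.557 to 0.576). Nectin3 was 44.0, 28.7 and 31.4, a ratio of 0.654 (0.617 to 0.694) between the skin matrices, and Cadm4 was 137, 109 and 84.3 (0.796). Nectin1 was 53.8, 82.1 and 99.1, and KO skin was 1.53 times WT skin (1.46 to 1.60). Mcam was 234, 295 and 377, a ratio of 1.26 (1.23 to 1.29), and Cadm1 was 122, 155 and 233, a ratio of 1.27. Cdh2 was 109, 114 and 120, and L1cam 21.5, 23.3 and 10.4. The median log2 ratio of the 10 genes between the skin matrices was −3.29e-05, and that of all genes 0.20.

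**Figure D3:**
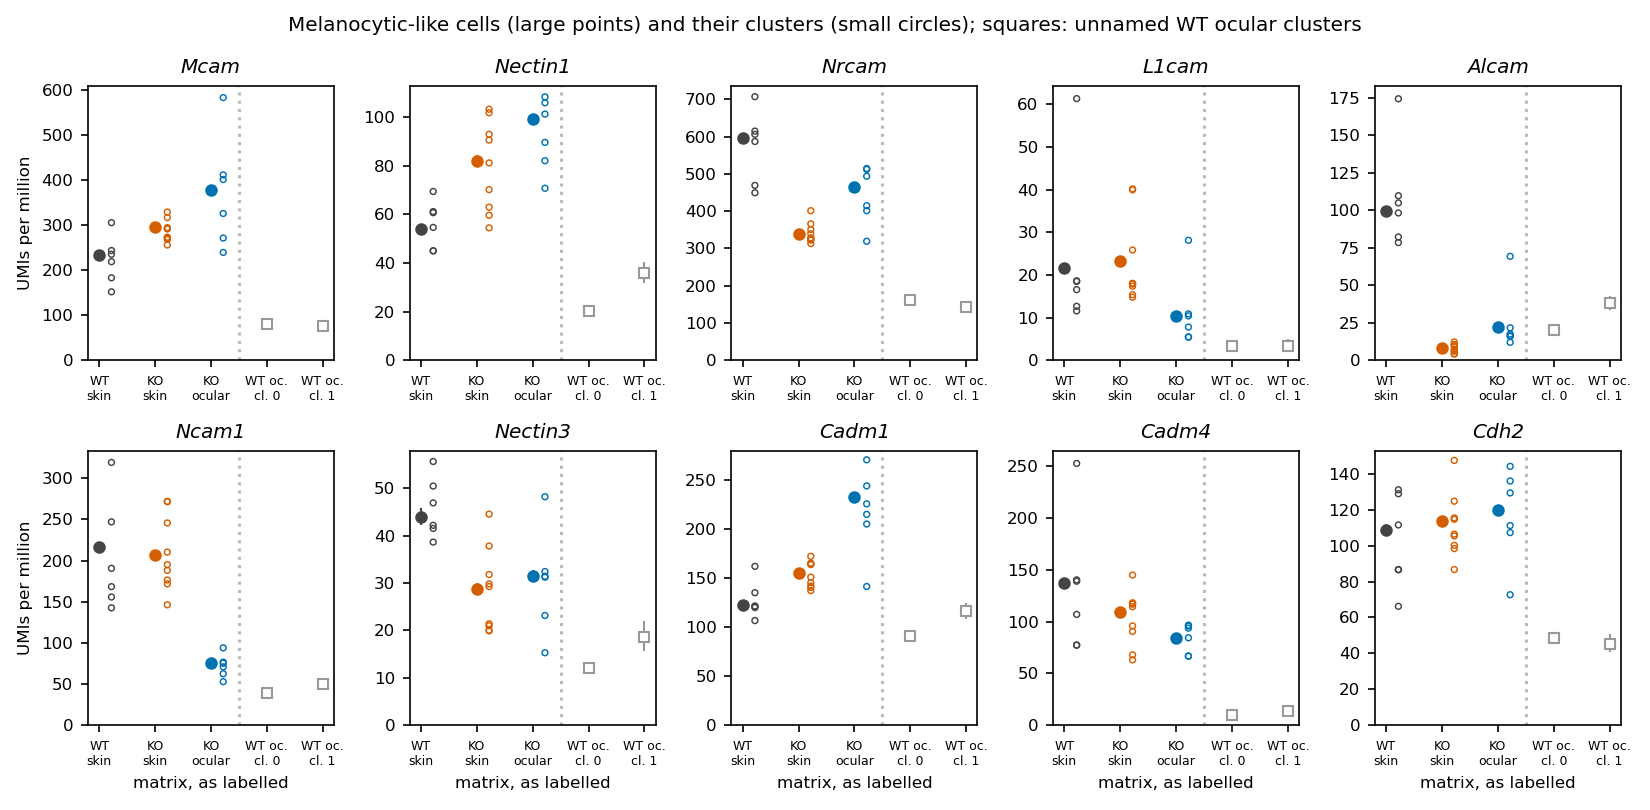
CPM, scaled UMI counts (vertical axis, linear from 0) of each gene in melanocytic-like cells of 3 matrices as labelled (large points, with exact Poisson 95% intervals that are mostly smaller than the point) and in each of their clusters (small circles). Squares right of the dotted line are clusters 0 and 1 of the WT ocular matrix, which has another gene list and barcode length; Alcam in KO skin lies below all clusters of WT skin.

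Between the 2 knockout matrices, which share a gene list, Ncam1 and L1cam were past 2-fold lower in KO ocular than in KO skin and Alcam past 2-fold higher. Of 8113 genes, 7.68% were lower and 5.95% higher by that measure (13.6% in all). Ncam1 was 216 CPM in WT skin, 207 in KO skin and 75.1 in KO ocular, and KO ocular held 0.363 of the KO skin level (0.352 to 0.374). Its clusters ran from 146 to 272 in KO skin and from 52.7 to 93.8 in KO ocular, without overlap. For L1cam the ratio was 0.445 (0.409 to 0.484), and its clusters overlapped (14.8 to 40.2 against 5.39 to 28.1). For Alcam it was 2.70 (2.46 to 2.97), with 1 small cluster, number 9 of 333 cells, at 69.2 CPM and the other 5 at 11.9 to 21.5. Macrophage markers summed to 115 CPM in that cluster and to 72.3 to 102 in the other 5, against 9235 in macrophage-like cells. Carry-over from neutrophil-like cells, which also held Alcam, was not measured. Endothelial-like cells held 12.8 CPM of Alcam in KO skin and 18.2 in KO ocular, near the melanocytic-like 8.27 and 22.4. How much of either level was background was not tested. Leaving out the 5% of cells with the highest doublet scores, then clustering and naming anew, took KO ocular from 5038 to 3996 melanocytic-like cells. The scores themselves left out only 1.43% of the 5038. The Alcam ratio was then 2.05 (1.85 to 2.28). Its levels, 16.8 and 8.17 CPM, were then under the 20 CPM needed to count it, so 0 of the 10 counted as past 2-fold higher.

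Some genes varied among the melanocytic-like clusters of one matrix. L1cam spanned 5.31-fold in WT skin, from 11.6 CPM to 61.4 in cluster 13, and 5.22-fold in KO ocular, with its highest level of 28.1 in cluster 9. Cadm4 spanned 3.27-fold in WT skin, and cluster 13 was again the highest (253). Mcam reached 583 in cluster 9 of KO ocular, against 239 to 411 in the other 5 clusters. In KO skin Nrcam and Mcam spanned 1.28-fold and 1.29-fold, and Cadm1 1.25-fold. Cluster 13 of WT skin had Masp1, Aqp6 and Bmp7 among its leading genes, and cluster 9 of KO ocular the stress and hypoxia genes Ero1l, Trib3 and Hspa1b. Interferon-induced genes (Ifit1, Isg15, Cxcl10 and Ccl5) led cluster 21 of WT skin, mitochondrial genes led cluster 12 of KO skin, and cluster 6 of KO skin had Ttr, a marker of retinal pigment epithelium, among its leading genes.

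In the WT ocular matrix the levels in clusters 0 and 1 were 39.1 and 50.2 CPM for Ncam1, 160 and 144 for Nrcam, 80.8 and 75.2 for Mcam, and 91.3 and 116 for Cadm1. Alcam was 20.2 and 38.0 there, and higher in its macrophage-like (103) and neutrophil-like cells (316). Cadm4 was 10.1 and 13.2, Cdh2 48.6 and 45.4, Nectin1 20.4 and 35.8, Nectin3 12 and 18.6, and L1cam 3.40 and 3.37. Neutrophil-like cells of that matrix held 55 CPM of Ncam1, 144 of Cadm1, 45.7 of Cdh2, 38.8 of Nectin1, 23.8 of Nectin3 and 4.38 of L1cam. The levels of these 6 genes and of Alcam in clusters 0 and 1 can thus not be told from background there. For Mcam, Nrcam and Cadm4 the neutrophil-like cells held 43.8, 86.3 and 7.51 CPM, and macrophage-like cells 52.0, 114 and 9.55. Rod-like cells held 77.0, 141 and 8.11 CPM of these genes, and cone-like cells 63.3, 190 and 15.1. Whether Mcam, Nrcam and Cadm4 exceed background in clusters 0 and 1 was not tested.

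Other cells of the tumours carried several of these genes, and melanocytic markers were counted in all of them. In macrophage-like cells the melanocytic markers stood at 14.1% (WT skin), 22.5% (KO skin) and 27.5% (KO ocular) of their level in melanocytic-like cells. Of the 10 genes, 6, 8 and 7 lay within 1.5 times of that share and none below it. Ncam1, for example, stood at 12.9%, 23.3% and 26.6%, and Nrcam at 14.1%, 21.5% and 24%. How many of all genes lay so near that share was not counted. Levels of the genes within 1.5 times of it were not told apart from background. L1cam was above that range in WT skin (73.2% of the melanocytic-like level) and KO ocular, and Mcam in WT skin (23.9%). Alcam and Cadm1 were above it in all 3 matrices. Alcam was 190, 105 and 142 CPM in macrophage-like cells, which was 191%, 1263% and 637% of the melanocytic-like level. Cadm1 was 415, 255 and 156, or 339%, 164% and 67.1%.

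In fibroblast-like cells of KO ocular, 9 of the 10 genes, all but Nrcam, stood more than 1.5 times above the share of the melanocytic markers (45.6%), against 7 in WT skin and 4 in KO skin. Ncam1 there was 155 CPM, 207% of the melanocytic-like level. How many of all genes stood so far above that share in fibroblast-like cells was not counted, so these counts describe the 10 genes only. Neutrophil-like cells also held Alcam, at 178, 71.2 and 113 CPM. Mcam was highest in endothelial-like cells, at 790 CPM in WT skin, 1007 in KO skin and 1428 in KO ocular, which is 337%, 342% and 378% of the melanocytic-like level. Melanocytic markers stood at 65.6%, 54.5% and 29.3% in the same cells. Nectin3 stood more than 1.5 times above that share there too, at 44.9, 35.5 and 62.3 CPM, 102% to 198% of the melanocytic-like level. Thinned to 1000 UMIs, 54.1%, 68.0% and 73.0% of endothelial-like cells had an Mcam UMI, against 18.8%, 23.3% and 28.2% of melanocytic-like cells and 5.50%, 6.49% and 6.08% of macrophage-like cells. Median depth in these 3 matrices was 6120, 4422 and 9208 UMIs in melanocytic-like cells, 6541, 3102 and 11911 in macrophage-like cells, and 4324, 2342 and 7849 in endothelial-like cells. Thinning left out 76, 338 and 331 shallower melanocytic-like cells, 10, 69 and 49 macrophage-like cells, and 8, 31 and 3 endothelial-like cells.

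**Figure D4:**
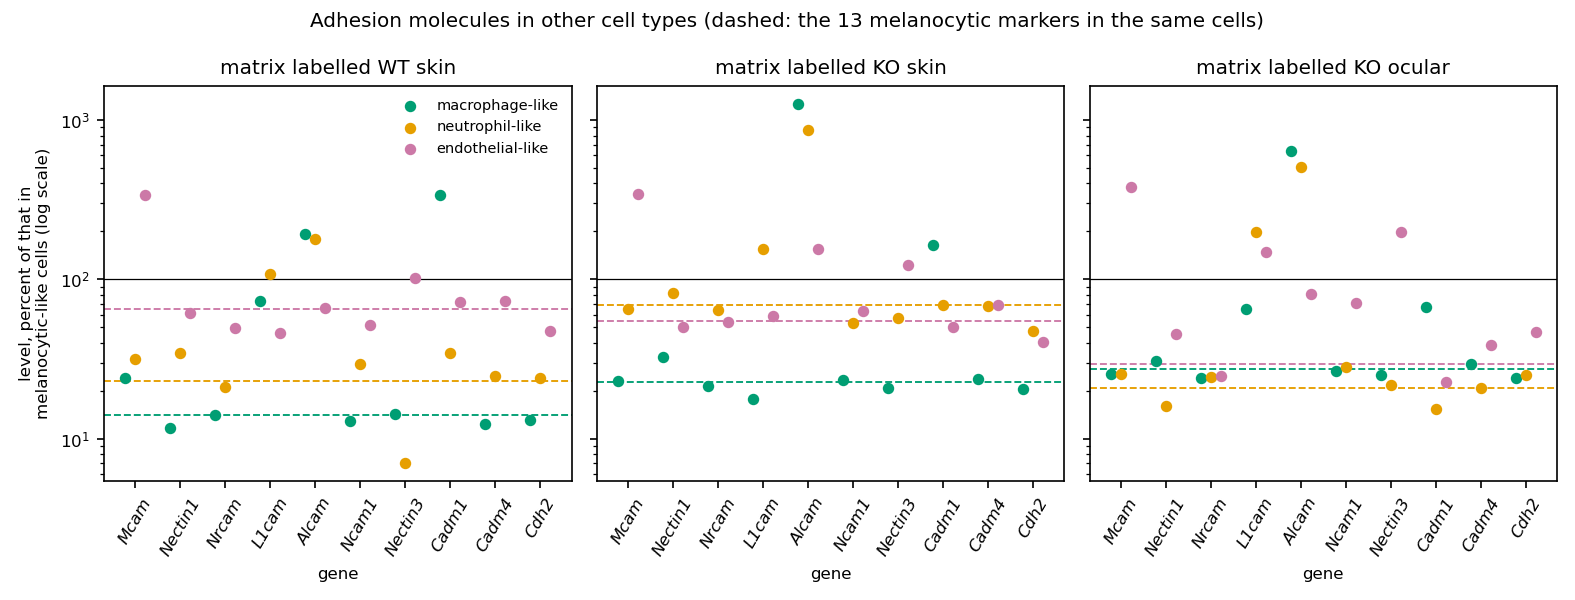
Level of each gene in macrophage-like, neutrophil-like and endothelial-like cells as a percent of its level in melanocytic-like cells of the same matrix (vertical axis, log scale; the solid line is 100%); dashed lines give the same percent for the 13 melanocytic markers together. Alcam and Cadm1 lie above the dashed line of macrophage-like cells in all 3 matrices, and Mcam above that of endothelial-like cells.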

How the data were processed

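The authors deposited bulk expression after variance stabilisation, in units close to log2. Stranded libraries of polyadenylated RNA were made, per the labels' protocols, and builds GRCm38 and mm10 come from the submitters' processing notes. No source used here names the aligner or counter. The stabilised values were inverted to reads, and in every library 100% came within 0.01 of whole, with 30.8 to 46.8 M reads each. "Normalised reads" are these reads on the scale of the table. Genes with a mean at least 1 above the lowest value (6.61) were tested with limma 3.58.1 (mean-variance trend) over 10 libraries as 5 groups. Alternatives were edgeR 4.0.16, DESeq2 1.42.0, quantile normalisation, other filters, a replicate block and leaving out each library; in single cells, resolution 0.5, 1000 UMIs per cell and a gate on markers. The differences understate changes of weakly expressed genes. On simulated data for clone 1, limma recovered 75 of 100 genes changed 2-fold and 99 of 100 changed 4-fold, with 9 false calls among 10803 genes.

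The authors deposited the single-cell matrices as UMI counts made by Cell Ranger 8.0.0, or 7.0.0 for WT ocular, per the file headers. Cells were clustered per matrix (scanpy 1.11.5, leidenalg 0.10.2, resolution 1). A cluster was melanocytic-like with at least 60% of the highest melanocytic level, at least 50% of the markers near their maximum, and no immune or blood marker among its 10 leading genes, a rule set after seeing the clusters. Doublets were scored but left in, and an alternative leaves out the top 5%, then clusters and names the cells anew. CPM was computed over summed UMIs of a cell class, and genes with 20 CPM in either matrix were counted against 2-fold.

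The 10 genes, the partner lists and the markers were chosen with earlier results of these data known. All 10 genes are named. Of each partner list at most 4 genes are named, those with the smallest adjusted p over the 4 clones, plus any called with one sign in all 4. The 3 nearest profiles are named for genes whose line means span at least 1 unit. Whole-genome and whole-exome libraries were not used here.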

Additional observations from a re-analysis of the deposited data

Results flagged for a closer look

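The effect of the knockout label differed among the 4 clones by the limma F test for 9 of the 10 genes; this difference is why they are listed. The adjusted p was 6.77e-07 for Alcam, 3.98e-05 for L1cam, 0.000100 for Nectin1, 0.000500 for Nrcam, 0.00139 for Nectin3, 0.00193 for Ncam1, 0.00876 for Cadm1, 0.0107 for Mcam and 0.0328 for Cadm4. Of all genes tested, 44.5% passed the same test. No clone mean stood apart from the other 3 by Dixon's test for any of the 10 genes.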

How the results depend on the processing

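The number of the 10 genes called in clone 1 (4 as reported) was 2 by edgeR with TMM on the recovered reads, 7 by DESeq2, 7 with the replicate block, and 0 to 7 when 1 library was left out. The number called with one sign in all 4 clones (1) was 3 by DESeq2, 2 with no filter on low values, 3 with the replicate block, and 0 to 4 when 1 library was left out. No other count for a clone, among the clones or for a partner list moved by more than 1.5 times under any alternative run, and the count with the clone as the unit was 0 under each. Some differences that were not called changed sign when a library was left out. Nectin1 in clone 1 ran from −0.12 to 0.045, Cadm1 in clone 2 from −0.54 to 0.092 and Cdh2 in clone 2 from −0.26 to 0.054. With the clone as the unit, leaving out 1 clone or library gave −0.26 to 0.35 for L1cam (−0.16 without clone 1, −0.02 without parental culture 1, −0.03 without culture 1 of clone 4), −0.026 to 0.36 for Nrcam and −0.73 to 0.057 for Alcam, the last 2 changing sign without clone 4. Same-numbered cultures deviated together with correlations of −0.03 to 0.73 between clones and −0.13 to −0.07 with the parental line. Not every pair was over 0.1, so the numbers were not taken to pair the cultures. With the replicate block, Ncam1, L1cam and Nectin3 also passed in clone 1 (limma adjusted p 0.0394, 0.0243 and 0.00699). In single cells, the count past 2-fold higher in KO ocular went from 1 to 0 without the highest doublet scores, where Alcam kept a ratio of 2.05 but was under 20 CPM in both matrices, and the other 3 counts did not change under any alternative. Apart from fewer samples or genes, the cause of these changes was not tested. With 2 cultures per line and 1 matrix per label, the precision is set by the number of samples more than by depth.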
